A study of Mus musculus with 5 samples.

Results

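Removal of leukemia inhibitory factor (LIF) for 24 hours was followed in normal mouse E14 embryonic stem cells by comparing 2 RNA-seq libraries, 1 from cells kept with LIF and 1 from cells kept 24 hours without LIF to which LIF was then given again. The sources used here do not say how long after the return of LIF the cells were collected. The comparison covers genes with a value above 0 in both libraries, 12936 of the 21930 genes that had a value in every library of the series. Of these, 9165 had a mean of at least 1 FPKM, which counts fragments per kilobase of transcript relative to the depth of the library, over the 5 libraries, and counts of differences are over these 9165 genes unless another number is given. E14 is an embryonic stem cell line, and the labels give its strain as C57BL/6. The other 3 libraries of the series are from E14 cells labelled as overexpressing hexokinase 2 (Hk2) and pyruvate kinase M2 (Pkm2), with LIF, after the same 24 hour withdrawal and return of LIF, and after 40 days without LIF. The labels call the cells of the 2 compared libraries normal and name no introduced gene. Every group has 1 library, so no difference below has a replicate check and no p-value is given. The pair of labelled libraries with and without the 24 hour withdrawal shares no library with the normal pair, and its values are set beside the normal ones, but the difference between the pairs could not be tested.

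LIF is a cytokine that keeps mouse embryonic stem cells self-renewing. It binds a receptor made of the LIF receptor and the shared subunit gp130, activates Janus kinases and, through them, the transcription factor STAT3, which enters the nucleus and switches on feedback inhibitors such as Socs3 and transcription factors of the naive pluripotent state such as Klf4 and Tfcp2l1. Cells that lose this signal move from the naive state of the early epiblast towards a formative and then primed state, marked by Otx2, Fgf5 and de novo DNA methyltransferases.

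STAT3 is known to bind DNA of the form TTCNNNGAA, a motif that reads the same on both strands. The motif was searched in the 250 bases before the transcription start of each gene in a RefSeq promoter table (GRCm38.p6), and 7.02% of all 32851 windows held it. A window was found for 7406 of the 9165 genes compared, and 6.78% of these genes had the motif in at least 1 window. The share was 11.1% (32 of 288) among genes at least 2-fold lower after withdrawal and 4.68% (11 of 235) among those at least 2-fold higher. Among genes past 2-fold in the same direction in the labelled pair too, it was 12.3% (13 of 106) for lower and 7.25% (5 of 69) for higher genes, so the share among higher genes was then not below that of all genes. Among genes with a single window the shares were 9.87% for lower, 3.51% for higher and 5.78% for all genes. A match describes these letters and is not evidence of binding. The list of LIF-STAT3 targets described further on had the motif in 5 of its 18 genes with a window, the naive list in 2 of 14 and the primed list in 1 of 10. The windows of 4 genes that hold the motif are printed here as examples. These genes are described in the text, were at least 2-fold lower in both cell types and have 1 window. Holding the motif was a condition of the choice, and only 13 of the 106 genes lower in both pairs met it. Genes that the text does not describe also hold the motif and meet the other conditions, among them Gpr4, Pros1, Itpka, Mob3c, Ada, Trp53i11 and Nupr1. The sequences are given with the motif in capitals and the rest in lower case, 5′ to 3′ on the strand of the gene. They belong to Socs3, the feedback inhibitor of LIF signalling (chr11:117969367-117969616, minus strand), Klk10, a secreted serine protease (chr7:43780804-43781053, plus strand), Sod2, the mitochondrial superoxide dismutase (chr17:13007589-13007838, plus strand), and Icam1, a cell adhesion receptor (chr9:21015690-21015939, plus strand).
Socs3: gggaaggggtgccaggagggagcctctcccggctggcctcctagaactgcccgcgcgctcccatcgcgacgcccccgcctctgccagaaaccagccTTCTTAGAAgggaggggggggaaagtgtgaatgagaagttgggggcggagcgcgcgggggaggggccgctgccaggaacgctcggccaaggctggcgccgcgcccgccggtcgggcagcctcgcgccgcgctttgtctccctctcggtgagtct
Klk10: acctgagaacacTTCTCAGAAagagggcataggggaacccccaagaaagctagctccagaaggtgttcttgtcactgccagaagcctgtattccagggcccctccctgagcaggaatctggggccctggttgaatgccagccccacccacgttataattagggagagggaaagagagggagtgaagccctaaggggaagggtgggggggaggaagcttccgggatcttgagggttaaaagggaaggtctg
Sod2: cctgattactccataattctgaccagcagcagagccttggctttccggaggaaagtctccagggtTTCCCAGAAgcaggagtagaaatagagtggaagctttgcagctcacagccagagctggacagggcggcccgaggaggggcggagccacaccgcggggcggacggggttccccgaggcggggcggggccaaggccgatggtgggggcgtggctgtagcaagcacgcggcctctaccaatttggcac
Icam1: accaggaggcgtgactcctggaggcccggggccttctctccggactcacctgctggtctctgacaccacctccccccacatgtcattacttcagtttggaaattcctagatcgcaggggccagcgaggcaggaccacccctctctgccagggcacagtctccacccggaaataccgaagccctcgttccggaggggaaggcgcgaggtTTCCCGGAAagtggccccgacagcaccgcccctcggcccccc
Counted from the transcription start, with negative positions before it, the first base of the motif lies at -154 in Socs3, -238 in Klk10, -185 in Sod2 and -42 in Icam1.

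The depth of the libraries, estimated from the size of the smallest FPKM steps, was 36200000 to 40100000 fragments, with 38100000 for the normal LIF library and 37000000 for the normal withdrawal library. The estimate used the median of FPKM times transcript kilobases among values between 0.018 and 0.036 only. That window bounds the result, so the similar estimates do not show that the depths were equal. Fragment numbers given further on rest on this estimate and are approximate. The 8 stem cell markers Pou5f1, Sox2, Nanog, Zfp42, Sall4, Lin28a, Utf1 and Dppa5a summed to 3302 FPKM with LIF and 3044 FPKM after withdrawal, and none was listed at 0. The 7 feeder and fibroblast markers summed to 0.827 and 1.58 FPKM, of which Thy1 made up 0.792 and 1.27 FPKM, and 3 and 2 of them were listed at 0. The longer fibroblast and feeder list of 16 genes summed to 5.58 and 17.6 FPKM, a difference that lay mostly in Tagln, an actin-binding protein listed at 0 with LIF and at 9.99 FPKM after withdrawal, and none of its 4 genes compared was past 2-fold. The 4 trophoblast markers summed to 0.511 and 0.857 FPKM with 2 listed at 0 in each library, the 4 mesoderm markers to 0.620 and 0.555 FPKM, the 6 primitive endoderm markers to 4.98 and 2.90 FPKM, and the 3 neural markers to 2.43 and 2.78 FPKM. Median log2 ratios were -0.21 for 61 cytosolic ribosomal protein genes and -0.38 for 34 replication histone genes and 0.11 for 11 reference genes. In the labelled pair these medians were 0.10, -0.06 and -0.07, and the part of these shifts in the other results was not tested.

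Most transcripts differed little between the normal cultures. The log2 ratio of FPKM + 1, withdrawal over LIF, had a median of -0.0086 over all genes, with quartiles at -0.23 and 0.21, and 63.5% of genes lay within 1.25-fold. At least 2-fold differences were found for 667 genes (7.28%), with 295 higher (3.22%) and 372 lower (4.06%) after withdrawal. In a culture as a whole, fewer cells of a type and less RNA per cell cannot be told apart. Only 34 genes were at least 4-fold higher and 55 at least 4-fold lower. Past 8-fold there were 2 genes on the higher side and 6 on the lower side. The spread of the ratios did not follow expression in 1 direction: the SD was 0.50 among 989 genes at 1 to 2 FPKM, 0.60 among 1821 genes at 2 to 5 FPKM and 0.42 among 477 genes at or above 100 FPKM. The share of 2-fold differences was 5.56%, 9.39% and 3.56% in these ranges. Adding 1 to FPKM shrinks ratios most in the lowest range, and its part in these values was not tested. Genes with 1 transcript in the table and genes with 2 or more had similar shares of such differences, 7.40% and 6.84%.

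**Figure D1:**
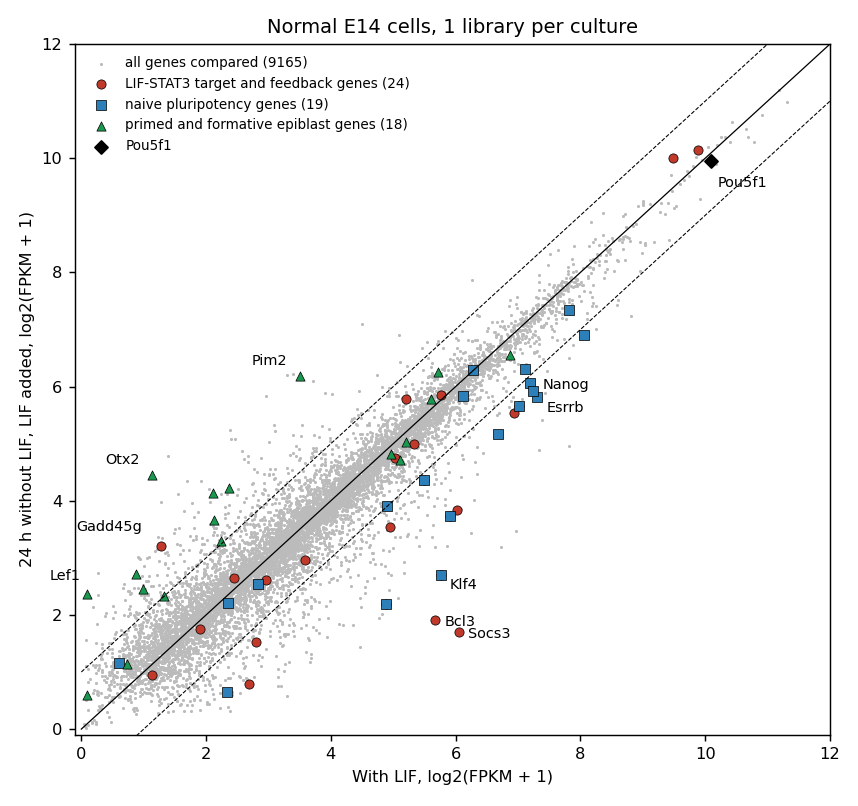
Each point is 1 gene, placed by its log2(FPKM + 1) in the normal library with LIF and in the normal library after withdrawal, with the line of equality and dashed lines at 2-fold. Socs3, Bcl3 and Klf4 lie far below the lower dashed line, Otx2, Pim2 and Lef1 above the upper one, and Pou5f1 close to equality. The 5 genes on both the LIF-STAT3 and the naive list are drawn as naive.

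Targets of LIF and STAT3 held the lowest ratios of the comparison. Of 24 genes compared, 12 were at least 2-fold lower and 1 higher, with a median log2 ratio of -0.87 against -0.0086 for all genes. In the labelled pair 10 of the 12 were also at least 2-fold lower. Of all genes, 4.06% were at least 2-fold lower and 3.22% higher in normal cells. This and the other gene lists were chosen with earlier results of these data known, so their counts and medians are not independent support. Socs3 lies on chromosome 11 from 117827393 to 117831361 (mm9, minus strand) and is protein-coding. It measured 65.3 FPKM in the LIF library against 2.25 FPKM in the withdrawal library, the lowest ratio of all genes (-4.35), and 64.8 against 0.97 FPKM in the labelled pair. Bcl3, a nuclear partner of NF-kappaB proteins, followed at 49.8 against 2.77 FPKM, with 34.9 against 1.005 FPKM in the labelled pair. For both genes, each withdrawal library of the 4 was below each LIF library. Further genes more than 2-fold lower were Junb, an AP-1 subunit (64.0 against 13.3 FPKM), Pim3, a serine/threonine kinase (122 against 45.5 FPKM), Icam1 (29.8 against 10.7 FPKM) and Cish, another inhibitor of cytokine signalling (5.94 against 1.88 FPKM). Sbno2, a transcriptional co-regulator, was lower in normal cells at 5.43 against 0.729 FPKM, while in the labelled pair it measured 5.74 against 4.28 FPKM.

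The other feedback inhibitors and targets did not all share this direction. Socs2 measured 53.2 FPKM with LIF and 57.0 FPKM after withdrawal, and Socs1 2.73 and 2.36 FPKM. Pim1, from the same kinase family as Pim3, measured 31.5 and 25.9 FPKM. The metallothioneins Mt1 (715 and 1031 FPKM) and Mt2 (946 and 1131 FPKM), a pair of close relatives, lay slightly above equality, and so did Myc, a growth-promoting transcription factor, at 35.9 and 53.8 FPKM. Gadd45g, a stress and differentiation gene, was the 1 gene at least 2-fold higher, at 1.42 against 8.27 FPKM, with 0.48 against 14 FPKM in the labelled pair. Without the 5 genes also on the naive list, 7 of 19 were at least 2-fold lower and the median was -0.34.

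Among the 8 genes compared from the list of the signalling chain itself, Stat3 had the lowest ratio. It measured 28.2 FPKM with LIF and 6.26 FPKM after withdrawal (-2.01), and 29.3 and 5.28 FPKM in the labelled pair. Il6st, which encodes gp130, measured 7.74 and 3.16 FPKM in normal cells and 3.01 and 2.65 FPKM in the labelled pair, so the labelled pair did not show a 2-fold difference. The kinase Tyk2 (5.55 and 11 FPKM) and the phosphatase Ptpn11 (17.7 and 19.1 FPKM) stayed within 2-fold. Jak3, a further Janus kinase that the list did not hold, was among the 15 lowest ratios at 19.3 against 2.56 FPKM, with 15.3 against 3.43 FPKM in the labelled pair. Lifr, Jak1 and Gab1 were each listed at 0 in 1 normal library and are outside the comparison.

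Naive pluripotency genes were lower as a group, with 11 of 19 genes at least 2-fold lower, none higher and a median log2 ratio of -1.12. In the labelled pair 10 of these 11 were also at least 2-fold lower. Of all genes, 4.06% were at least 2-fold lower in normal cells. The zinc finger factor Klf4 measured 53.1 against 5.48 FPKM and the T-box factor Tbx3 28.5 against 3.54 FPKM. Tfcp2l1, a factor that can stand in for LIF signalling when forced, measured 59.0 against 12.4 FPKM. Prdm14, a repressor of DNA methylation and FGF signalling, measured 4.02 against 0.561 FPKM (about 393 and 53 fragments), and 6.29 against 1.27 FPKM in the labelled pair. Esrrb, an orphan nuclear receptor, measured 157 against 55.0 FPKM, Tcl1, an Akt co-activator, 102 against 34.8 FPKM, and Nr0b1, another orphan receptor, 144 against 66.2 FPKM. These genes thus stayed well above 1 FPKM after withdrawal, apart from Prdm14. Other naive genes lay within 2-fold: Klf2 at 137 and 78.2 FPKM, Zfp57, which protects imprints, at 224 and 161 FPKM, Nr5a2 at 4.10 and 3.63 FPKM, and Fgf4 at 76.8 FPKM in both libraries. Nr5a2 was 13.8 and 3.61 FPKM in the labelled pair, and Klf2 200 and 43.1 FPKM.

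The general pluripotency genes split. Among the 16 compared, 4 genes were lower by 2-fold or more and 1 higher, with a median of -0.05. Over all genes the shares were 4.06% lower and 3.22% higher. Nanog was the lowest at 150 against 59.3 FPKM, followed by Tdgf1, a Nodal co-receptor, at 133 against 54.3 FPKM, with 212 against 158 FPKM in the labelled pair. Gdf3, a TGF-beta family ligand, measured 57.7 against 24.3 FPKM, but 30.1 against 38.3 FPKM in the labelled pair. Zfp296, a zinc finger factor, lay at the 2-fold limit with 49.4 against 24.1 FPKM, a log2 ratio of -1.004 that was -0.94 under quantile normalization. Pou5f1 (1092 and 987 FPKM), Lin28a (146 and 140 FPKM), Dppa5a (985 and 998 FPKM) and Utf1 (411 and 505 FPKM) lay within 1.25-fold. Dppa2, a chromatin-associated factor, was the higher one at 19.3 against 42.4 FPKM, with 24.5 against 41.1 FPKM in the labelled pair.

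**Figure D2:**
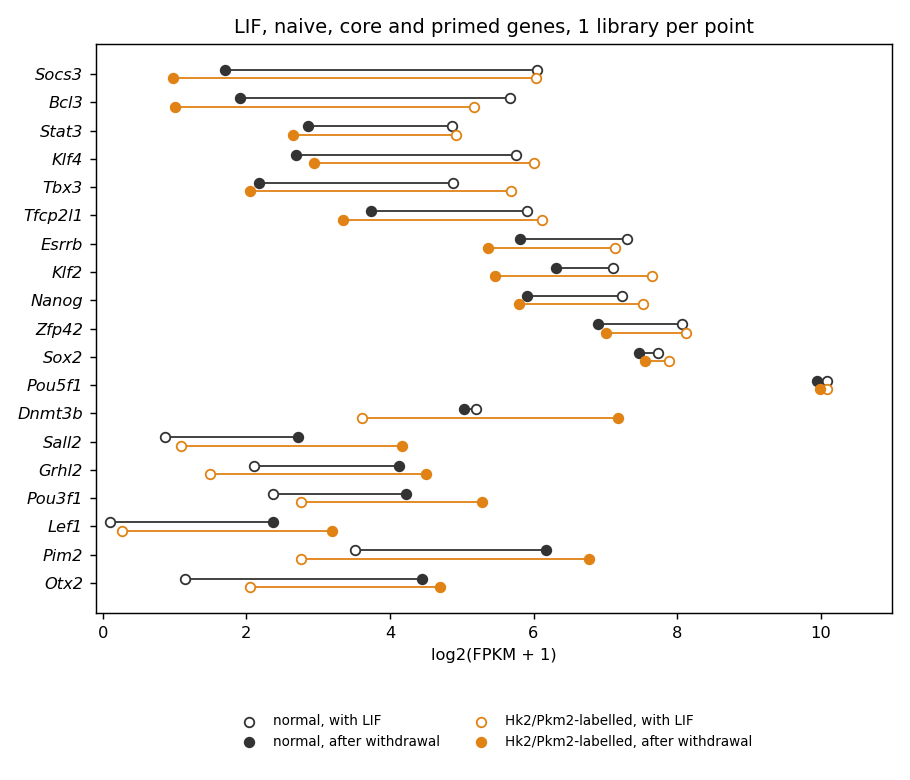
Each gene has 2 horizontal lines, 1 for normal and 1 for Hk2/Pkm2-labelled cells, from log2(FPKM + 1) with LIF (open point) to that after withdrawal (filled point), with 1 library per point. Both lines run to the left for Socs3 (65.3 against 2.25 FPKM in normal cells) and the other genes down to Zfp42, and to the right from Sall2 to Otx2, while the lines for Dnmt3b differ between the cell types.

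Primed and formative epiblast genes stood on the other side. Of 18 genes compared, 10 were at least 2-fold higher and none lower, with a median log2 ratio of 1.03. Of all genes, 3.22% were at least 2-fold higher. The list was chosen with earlier results of these data known, so its count and median are not independent support. The homeobox factor Otx2 had the highest ratio after Vcl, at 1.20 against 20.7 FPKM, with 3.13 against 24.9 FPKM in the labelled pair. Its log2 ratio in normal cells was 3.304. Otx2 lies on chromosome 14 from 49277354 to 49287319 (mm9, minus strand). Pim2, a kinase on chromosome X, measured 10.4 against 71.3 FPKM, and the Wnt pathway factor Lef1 0.0674 against 4.16 FPKM. Grhl2, an epithelial transcription factor, measured 3.32 against 16.5 FPKM, the POU factor Pou3f1 4.18 against 17.7 FPKM, Sall2, a zinc finger factor, 0.825 against 5.57 FPKM, and the growth factor Fgf15 3.36 against 11.7 FPKM. In the labelled pair these genes were also at least 2-fold higher, and Pim2 reached 109 FPKM there after withdrawal. Sox3 (1.51 against 4.02 FPKM), Sox11 and Zic5 (0.978 against 4.48 FPKM), transcription factors of the early neural plate and epiblast, complete the 10. Zic5 stood below 2-fold in the labelled pair, with a log2 ratio of 0.68. The pseudocount of 1 lowers the ratios of genes with low LIF levels, and without it the ratio of Lef1 was 5.95 and that of Otx2 4.11.

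Not every primed marker differed in normal cells. Dnmt3b, a de novo DNA methyltransferase, measured 35.8 FPKM with LIF and 31.7 FPKM after withdrawal, whereas the labelled libraries measured 11.2 and 144 FPKM. Its direction in normal cells depended on the transcripts summed: the log2 ratio was -0.17 over all of them and 0.89 for the transcript with the highest mean. Dnmt3l, a catalytically inactive partner of the de novo methyltransferases, measured 327 and 523 FPKM in normal cells but 279 and 202 FPKM in the labelled pair. Fgf5 was low in both normal libraries at 0.0685 and 0.520 FPKM, about 7 and 48 fragments, and at 0.0329 and 3.56 FPKM in the labelled pair. Its log2 ratio in normal cells was 0.51, and 2.93 without the pseudocount. The forkhead factor Foxd3 (33.3 and 25.1 FPKM), Tcf15 (116 and 93.3 FPKM) and Etv4 (30.1 and 27.2 FPKM) lay slightly below equality. The maintenance methyltransferase Dnmt1 (62.5 and 61.4 FPKM) and its partner Uhrf1 (88.0 and 84.0 FPKM) were alike in both cultures.

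Signalling pathways other than LIF differed in single members. Of all genes, 4.06% were at least 2-fold lower and 3.22% higher, and counts in these small lists are descriptions only. In the Nodal and activin pathway, 3 of 16 genes were at least 2-fold lower, namely Tdgf1, Gdf3 and Smad4. Among them Smad4 alone was also at least 2-fold lower in the labelled pair, where Tdgf1 had a log2 ratio of -0.42 and Gdf3 0.34. Smad4 is the shared signal transducer of the TGF-beta family and stood at 18.5 against 6.68 FPKM (15.3 against 5.65 FPKM in the labelled pair). Skil, a feedback repressor of that pathway, was higher at 9.51 against 27.7 FPKM (5.84 against 31.2 FPKM), while Nodal itself measured 31.5 and 38.6 FPKM and Lefty1, its inhibitor, 32.1 and 32.9 FPKM. Bmp4, the ligand that induces Id genes, measured 39.3 against 15.02 FPKM, with 80.0 against 15.1 FPKM in the labelled pair. Id1, one of those targets, measured 167 against 88.9 FPKM, and Id2 and Id3 lay within 1.25-fold. Among 17 Wnt genes, Lef1 was higher and the receptor Fzd5 lower, at 23.5 against 9.57 FPKM. Among 16 genes of the FGF and ERK pathway, the phosphatase Dusp4 was the only one past 2-fold, at 4.06 against 10.9 FPKM, and the ERK targets Dusp6 (49.2 and 44.6 FPKM) and Spry4 (32.2 and 25.8 FPKM) were close to equality. Immediate early genes included 3 of 14 that were at least 2-fold lower, Junb, Fos (4.82 against 0.883 FPKM) and Egr1 (68.3 against 25.4 FPKM). All 3 were also at least 2-fold lower in the labelled pair.

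Lineage genes were mostly low in both cultures. Their counts past 2-fold are small and stand beside 4.06% of all genes lower and 3.22% higher. Of the 14 primitive streak and mesoderm genes, 12 had a mean under 1 FPKM and none of the other 2 reached 2-fold. Of 22 primitive and visceral endoderm genes, 14 were compared, with 2 lower and 1 higher. Lama1, a basement membrane laminin chain, measured 17.4 against 2.52 FPKM (23.9 against 0.436 FPKM in the labelled pair), and the endoderm factor Sox7 3.02 against 0.361 FPKM. Lrp2, an endocytic receptor, measured 1.26 against 7.65 FPKM (2.64 against 10.1 FPKM), and Gata6 stayed near 0 at 0.13 and 0.0912 FPKM. The trophoblast list of 16 genes summed to 44.5 FPKM with LIF and 24.7 FPKM after withdrawal, with 2 of 7 genes compared past 2-fold, both lower, and a median of -0.36. The transcription factors Tead4 (9.01 against 1.26 FPKM) and Tfap2c (12.1 against 2.47 FPKM) were at least 2-fold lower in both cell types. The trophoblast list's defining markers Cdx2, Elf5, Gata3 and Tpbpa had means under 1 FPKM. The neural list of 13 genes summed to 76.4 and 20.2 FPKM (99.4 and 19.4 FPKM in the labelled pair), with a median of -0.61 over 5 genes compared. Its 2 genes past 2-fold were lower: Hes1, a repressor and Notch target, at 34 against 11.9 FPKM (40.3 against 9.14 FPKM), and the adhesion molecule Ncam1 at 3.27 against 0.621 FPKM (2.14 against 0.971 FPKM). Sox1 (1.68 and 1.90 FPKM) and Sox21 (1.83 and 2.56 FPKM) lay above equality in normal cells. In the labelled pair both were lower after withdrawal, at 3.08 and 1.29 FPKM and at 3.30 and 2.17 FPKM. Tubb3, a neuronal tubulin, stood at 31.7 FPKM with LIF and was listed at 0 after withdrawal.

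Epithelial junction genes had a median log2 ratio of 0.47, with 3 of 18 genes past 2-fold on the higher side and 2 on the lower. Over all genes these shares were 3.22% and 4.06%. E-cadherin (Cdh1), the main adhesion molecule of epiblast cells, measured 56.0 FPKM with LIF and 125 FPKM after withdrawal, and 33.0 and 94.4 FPKM in the labelled pair. Cldn6, a tight junction claudin of early epithelia, measured 12.2 against 34.5 FPKM (1.66 against 11.2 FPKM). Epcam, a surface glycoprotein, lay within 2-fold at 59.2 and 88.1 FPKM. The 2 lower genes, Jup (23.6 against 6.56 FPKM) and F11r (21.1 against 7.99 FPKM), were not 2-fold lower in the labelled pair, which had 6.06 and 5.62 FPKM for Jup and 1.94 and 15.3 FPKM for F11r. Among 7 mesenchymal genes, the intermediate filament Vim measured 100.4 against 44.6 FPKM (144 against 37.5 FPKM), and Fn1, fibronectin, 35.9 and 52.7 FPKM. The myosin light chain Myl9 (1.13 against 5.44 FPKM) and the focal adhesion protein Zyx (6.00 against 13.1 FPKM) were at least 2-fold higher, and both were so in the labelled pair. They are 2 of 3 higher genes among 19 of the focal adhesion and actin list, whose median was 0.35. The third is Vcl, which links integrins to actin and had the highest ratio of all genes, at 1.63 against 26.6 FPKM, but 14.1 against 3.04 FPKM in the labelled pair.

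**Figure D3:**
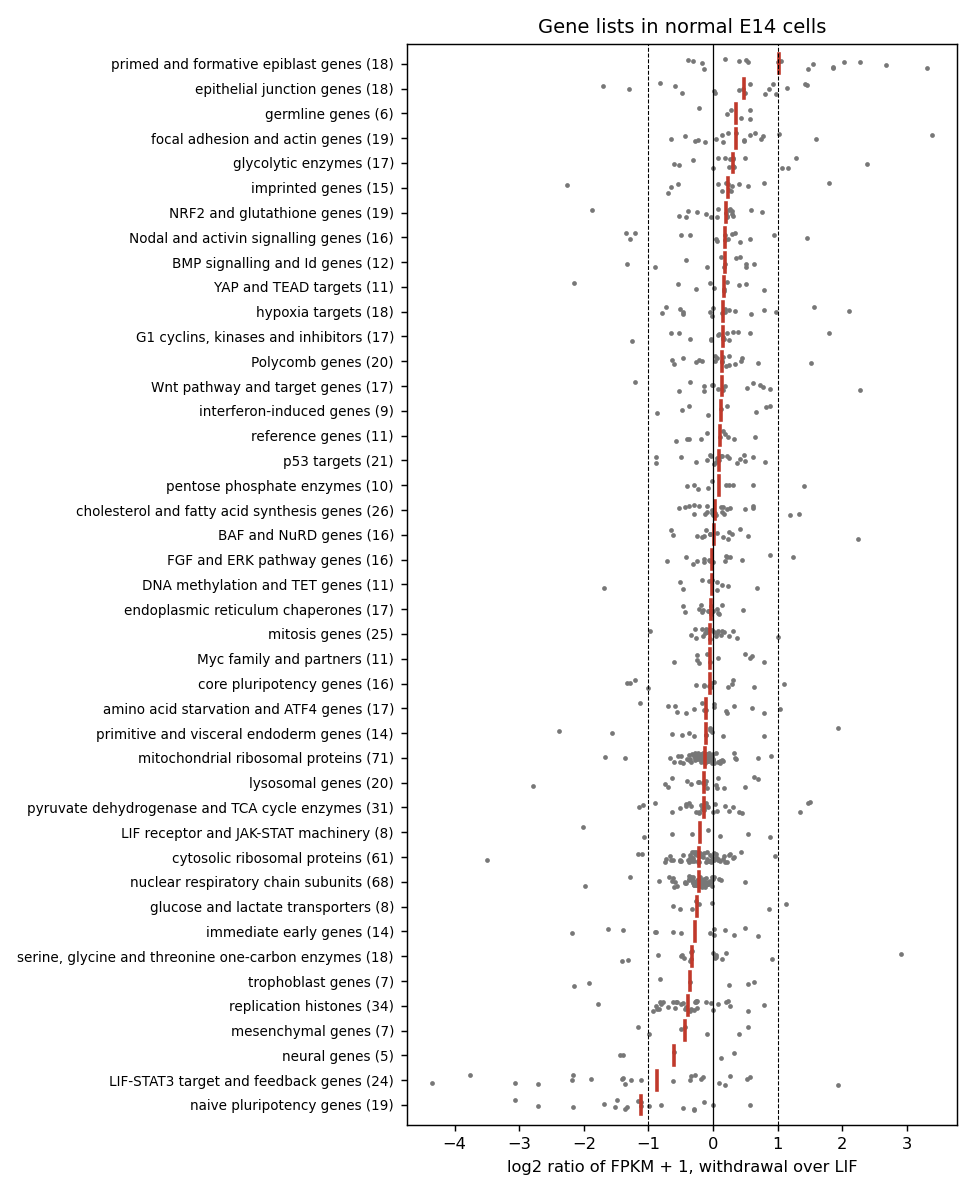
Log2 ratios of FPKM + 1, withdrawal over LIF, in normal cells for the lists with at least 5 genes compared, with 1 grey point per gene, the list median as a red bar, and dashed lines at 2-fold. The naive list (-1.12) and the LIF-STAT3 list (-0.87) have the lowest medians and the primed list (1.03) the highest, and the remaining medians lie within 2-fold of 0.

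Metabolic lists held some enzymes past 2-fold and, in places, smaller shifts across the list. For scale, 3.22% of the 9165 genes compared lay past 2-fold on the higher side and 4.06% on the lower. Their median log2 ratio was -0.0086. The list counts in this paragraph are descriptions only. In glycolysis 4 of 17 genes were past 2-fold, all on the higher side. A log2 ratio above 0 was found for 14 of the 17, and the median was 0.30 (0.31 in the labelled pair). All 3 phosphofructokinase isozymes, which catalyse the committed step, were among the 4: Pfkl measured 12.1 against 67.1 FPKM, Pfkm 8.78 against 22.7 FPKM and Pfkp 8.09 against 19.2 FPKM, and all 3 were at least 2-fold higher in the labelled pair. For Pfkm the transcript with the highest mean had a log2 ratio of 0.73, against 1.28 over all transcripts. Ldhb, the heart-type lactate dehydrogenase, was the fourth at 20.6 against 44.2 FPKM, with 12.4 against 22.6 FPKM in the labelled pair. Hk2, which phosphorylates glucose, had the lowest ratio of the list at 76.2 and 49.7 FPKM. Pkm measured 510 and 611 FPKM. The lactate exporter Slc16a3 measured 11.9 against 27.4 FPKM (29.3 against 61.8 FPKM), and the ribose phosphate pathway enzyme Prps2 7.42 against 21.3 FPKM (15.3 against 43.6 FPKM). Tdh, the threonine dehydrogenase of mouse stem cells, measured 225 against 89.4 FPKM (217 against 81.8 FPKM), and Phgdh, the first enzyme of serine synthesis, 9.16 against 2.81 FPKM (16.2 against 10.7 FPKM). Of 31 genes of pyruvate dehydrogenase and the tricarboxylic acid cycle, 3 were past 2-fold on the higher side and 2 on the lower, with a median of -0.15. Idh3b, a subunit of isocitrate dehydrogenase, measured 25.6 against 72.7 FPKM (23.9 against 71.8 FPKM) and was the 1 of the 5 that the labelled pair shared. Suclg2, a succinyl-CoA synthetase subunit, measured 2.59 against 9.09 FPKM (2.31 against 3.49 FPKM), and the kinase Pdk3, which inhibits pyruvate dehydrogenase, 5.70 against 16.1 FPKM (9.34 against 10.4 FPKM). Ogdh, of the oxoglutarate dehydrogenase complex, measured 16.1 against 7.05 FPKM (14.1 against 13.7 FPKM). The malic enzyme Me2 measured 9.97 against 3.97 FPKM in normal cells and 3.31 against 38.4 FPKM, the opposite direction, in the labelled pair. Respiratory chain subunits had a median of -0.22 (-0.11 in the labelled pair), and 63 of 68 had a log2 ratio below 0. With quantile normalization the median in normal cells was -0.13. Cytosolic ribosomal protein genes had a similar median of -0.21, and the part of a scaling shift in both was not tested. Among the 68, 2 were at least 2-fold lower, Uqcrb (40.0 against 9.33 FPKM) and Ndufa11 (17.0 against 6.34 FPKM). Neither differed 2-fold in the labelled pair. Lipid synthesis genes had a median of 0.03, and Fasn, fatty acid synthase, measured 27.1 against 62.9 FPKM and Ebp, a sterol isomerase, 3.38 against 9.93 FPKM.

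In the cell cycle and stress lists, 2-fold differences lay in single genes. None of 25 mitosis genes, 21 p53 pathway genes and 17 endoplasmic reticulum chaperones was past 2-fold, beside 7.28% of all genes. At that share lists of this size hold few such genes, so the counts in this paragraph are descriptions only. The condensin gene Smc2 and the kinetochore gene Pmf1, described further on, were outside the mitosis list and past 2-fold in normal cells. The centromere histone Cenpa came closest among the mitosis genes, at 23.1 and 47.2 FPKM. Among G1 regulators, Ccnd3, a D-type cyclin, measured 152 against 63.1 FPKM (192 against 82.3 FPKM), and the imprinted kinase inhibitor Cdkn1c 10.6 against 39.0 FPKM (8.11 against 30.7 FPKM). Tfeb, a regulator of lysosome genes, measured 32.9 against 3.94 FPKM (20.7 against 1.69 FPKM), and no other of 20 lysosomal genes was past 2-fold. Sod2 measured 80.2 against 21.2 FPKM (73.7 against 29.1 FPKM), and no other of 19 antioxidant genes was past 2-fold. Bnip3, a mitophagy receptor and hypoxia target, measured 5.37 against 26.4 FPKM (1.55 against 23.4 FPKM), while Vegfa, a hypoxia-induced growth factor, measured 4.03 and 1.92 FPKM.

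In the chromatin, growth and stress lists at most 2 members each were past 2-fold. The share over all genes was 7.28%, and with so few genes in most lists these counts are not read as a result about the lists. The 20 Polycomb genes had a median of 0.14, with Kdm2b, which recruits Polycomb complexes to CpG islands, at 9.90 against 30 FPKM (14.8 against 27.4 FPKM in the labelled pair). Among 16 genes of the BAF and NuRD remodelling complexes, Smarca4, the ATPase of BAF, measured 7.48 against 39.1 FPKM (19.7 against 27.4 FPKM). In neither gene did the labelled pair reach 2-fold. Of 11 YAP and TEAD genes, Tead4 alone was past 2-fold, and Yap1, the co-activator itself, measured 24.7 and 43.3 FPKM. The 15 imprinted genes had a median of 0.23, with Cdkn1c on the higher side and Rian, a maternally expressed noncoding RNA, on the lower at 48.0 against 9.28 FPKM (36.9 against 33.0 FPKM). Among 17 amino acid starvation genes, Trib3, a pseudokinase, measured 7.95 against 3.07 FPKM (11.6 against 5.69 FPKM), and Sars, a seryl-tRNA synthetase, 8.84 against 19.1 FPKM (13.6 against 9.95 FPKM). Neither was past 2-fold in the labelled pair. Among 18 hypoxia targets, P4ha2, a collagen prolyl hydroxylase, stood beside Bnip3 at 0.626 against 3.78 FPKM (2.34 against 2.84 FPKM). None of the 11 Myc family genes, 9 interferon-induced genes or 6 germline genes was past 2-fold, and the germline median was 0.36. Of 71 mitochondrial ribosomal proteins 2 were lower, Mrps17 (31.6 against 9.25 FPKM) and Mrpl42 (49.4 against 18.7 FPKM), and neither was so in the labelled pair.

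The labelled pair was used to ask how many of the 2-fold differences recurred in other libraries. Of the 295 higher genes, 283 were above 0 in both labelled libraries, and 92 of these (32.5%) were at least 2-fold higher there, which is 24.3% of the 379 genes that were higher in the labelled pair. Of the 372 lower genes, 354 were above 0 in both labelled libraries and 152 (42.9%) were at least 2-fold lower there, which is 36.9% of the 412 genes lower in that pair. In that pair as a whole, 9.05% of the 9160 genes compared were past 2-fold, 4.36% on the higher and 4.69% on the lower side. Another 19 higher and 20 lower genes were at least 2-fold different in the opposite direction. Across the 8938 genes above 0 in all 4 libraries the ratios of the pairs had a Pearson correlation of 0.42 and a Spearman correlation of 0.39, given as a description over genes of the same 4 libraries.

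**Figure D4:**
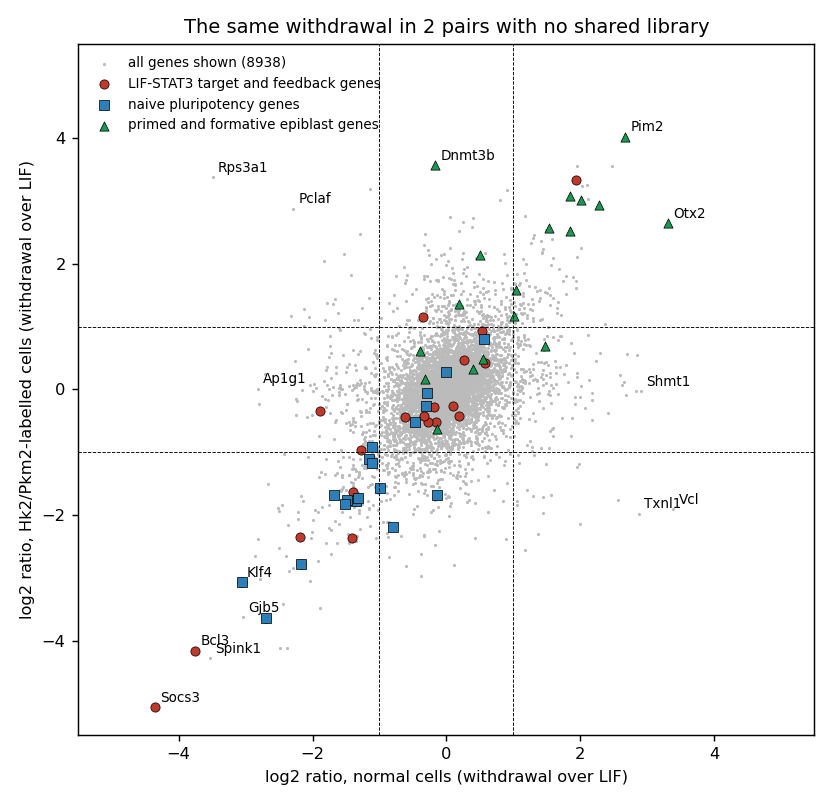
Each point is 1 gene, placed by its log2 ratio of FPKM + 1 (withdrawal over LIF) in normal cells and in Hk2/Pkm2-labelled cells, with dashed lines at 2-fold. Socs3 (-4.35 in normal cells) and Otx2 (3.304) lie along the diagonal, Shmt1 and Ap1g1 lie near 0 in the labelled pair, and Vcl and Rps3a1 have opposite signs.

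Among the genes lowest in both pairs, several are not on the lists above. Spink1, a secreted trypsin inhibitor, measured 105.4 against 8.17 FPKM in normal cells and 101.7 against 4.27 FPKM in labelled cells. The gap junction protein gene Gjb5 measured 21.2 against 1.69 FPKM in normal cells and 17.5 against 0.501 FPKM in labelled cells. Both genes had both LIF libraries above both withdrawal libraries. Inhbb, the beta B chain of activin and inhibin, measured 8.17 against 0.688 FPKM, Msc, a basic helix-loop-helix repressor, 21.4 against 3.39 FPKM, Klk10 11.8 against 1.26 FPKM, and Khdc3, a maternal factor of early embryos, 7.84 against 0.685 FPKM. Stt3a, a catalytic subunit of the oligosaccharyltransferase, measured 74.6 against 9.80 FPKM (75.9 against 13.8 FPKM). Ftl1, the ferritin light chain, measured 224 against 29.9 FPKM (176 against 27.1 FPKM), but this gene has near-identical copies, so its value is uncertain. At 40 days without LIF, Spink1 stood at 19.8 FPKM, Gjb5 at 1.97 FPKM and Inhbb at 0.389 FPKM, all below both LIF libraries, whereas Lama1 (77.3 FPKM) and Stt3a (104 FPKM) were above both.

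Among the genes highest in both pairs, Enpp2, the enzyme that makes lysophosphatidic acid, measured 0.139 against 3.39 FPKM (0.0734 against 11.6 FPKM) and Vrtn, a vertebral development factor, 0.199 against 5.67 FPKM (0.116 against 12.1 FPKM). Car4, a membrane carbonic anhydrase, measured 0.877 against 7.10 FPKM (0.402 against 10.4 FPKM), Tmem54 0.925 against 6.86 FPKM (0.143 against 9.76 FPKM), and Igsf9, an immunoglobulin superfamily adhesion protein, 3.70 against 16.4 FPKM (3.45 against 14.4 FPKM). The withdrawal libraries of both cell types lay above both LIF libraries for each of these 5 genes. Tsen15, a subunit of the tRNA splicing endonuclease, measured 1.32 against 7.95 FPKM (0.911 against 7.24 FPKM).

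Most genes with the highest ratios in normal cells did not show them in the labelled pair. Of the 15 highest, only Otx2, Pim2 and Vrtn were at least 2-fold higher in the labelled pair. For Shmt1, which makes glycine from serine in the cytosol, the normal LIF library stood at 8.80 FPKM, while the other normal library and both labelled libraries stood at 72.5, 85.3 and 83.4 FPKM. Smc2, a condensin subunit, measured 4.25 FPKM there against 32.7, 37.0 and 34.6 FPKM, and Bola2, an iron-sulfur cluster chaperone, 21.7 FPKM against 136, 135 and 159 FPKM. Among the lowest ratios, Ap1g1, an adaptor protein of vesicle coats, was at 2.86 FPKM in the normal withdrawal library and at 26.3, 30.8 and 31.1 FPKM in the other 3. Over all 295 higher genes, in 116 the normal LIF library lay apart from 3 libraries that were within 2-fold of each other, and in 47 the normal withdrawal library did. Over the 372 lower genes these counts were 77 and 95. With 1 library per group, a difference of such a gene cannot be told apart from a deviation of that library.

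**Figure D5:**
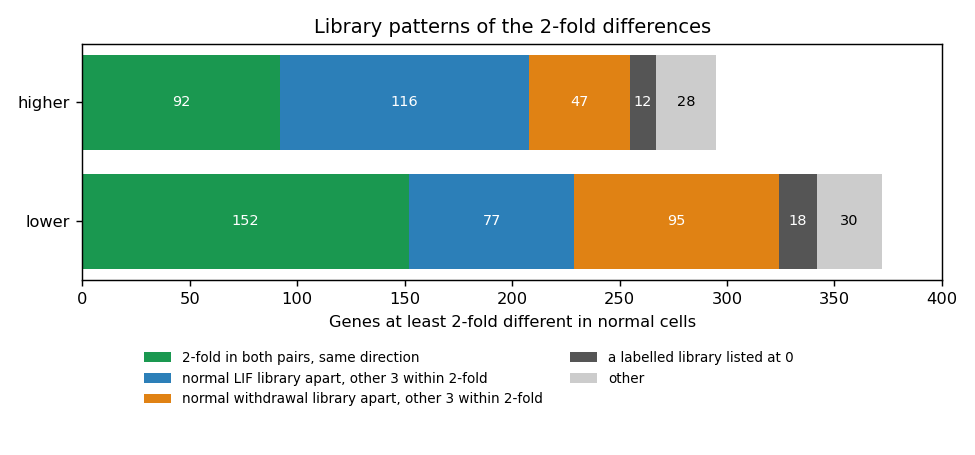
Bars count the 295 higher and 372 lower genes of the normal pair by how they sit in the 4 libraries of the normal and Hk2/Pkm2-labelled pairs. At least 2-fold differences in the same direction in both pairs make up 92 of the higher and 152 of the lower genes. The normal LIF library stood apart from the other 3 in 116 and 77 genes, and the normal withdrawal library in 47 and 95.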

How the data were processed

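The authors deposited FPKM for each of 28698 RefSeq transcripts in 5 libraries, made with TopHat2 2.0.7 and Cufflinks 2.0.2 on mm9, per the submitters' processing notes. Per the labels' protocols, libraries were made with TruSeq reagents, which do not mark strand, so overlapping genes were not separated. The sources used here give no further settings. Symbols were matched by accession to a RefSeq table (GRCm38.p6), with 632 transcripts unmatched. FPKM was summed per gene, copy suffixes removed, and 337 genes with a hyphen were left out. FPKM is not a count, so no count model was run. Depth was estimated from single-coding-transcript genes as the FPKM of 1 fragment times the transcript length (GENCODE vM1, mm9, also used for coordinates). Only products between 0.018 and 0.036 from transcripts of at least 2 kilobases were used. Ratios are log2(FPKM + 1) differences of 2 libraries, computed with Python 3.11.15, numpy 2.4.6 and pandas 2.3.3, and tested on simulated data. The 47 gene lists, and the rule naming up to 6 genes per list and the 15 most extreme ratios, were chosen with earlier results of these data known. Genes named outside the rule were chosen after their values were seen. Alternatives covered pseudocount, filters, scaling and transcript choice. Some genes that the rule names are not reported here.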

Additional observations from a re-analysis of the deposited data

Results flagged for a closer look

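For 19 higher and 20 lower genes of the normal pair, the Hk2/Pkm2-labelled pair differed at least 2-fold in the opposite direction. The difference between the pairs was not tested. The 10 with the largest such ratios by rule are given here. Rps3a1, a ribosomal protein gene with near-identical copies, had a log2 ratio of -3.49 in normal cells and 3.38 in labelled cells. Pclaf, a PCNA-binding replication factor, had -2.29 and 2.88, the RNA-binding ubiquitin ligase Trim71 -1.83 and 2.05, and the mitochondrial factor Tfb1m -1.53 and 2.15. In the other direction, Vcl, which links integrins to actin, had 3.39 and -1.91, the thioredoxin-like Txnl1 2.87 and -1.98, and the unconventional myosin Myo10 2.56 and -1.75. Pmf1, a kinetochore protein, had 1.99 and -2.15, Phf11d 1.56 and -1.68, and Yipf6, a Golgi membrane protein, 1.45 and -1.71. Vcl measured 1.63 and 26.6 FPKM in normal cells and 14.1 and 3.04 FPKM in labelled cells, so that neither LIF nor withdrawal libraries were alike.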

How the results depend on the processing

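The 295 higher genes became 516 with a pseudocount of 0.1, 554 with none, 443 with genes listed at 0 included and 194 with a mean FPKM of at least 5. The 372 lower genes became 247 at a mean of at least 5, where fewer genes (6355) were tested. Under the other alternatives both counts stayed within 1.5 times. The higher share of called genes ran from 43.9% to 50.6%. None of the 118 named genes past 2-fold changed sign under any alternative that kept them, and Zfp296 and Pfkm were the only ones to drop under 2-fold. Medians over the alternatives ran from -1.27 to -0.49 for LIF-STAT3 targets, from -1.16 to -1.04 for naive and from 0.99 to 1.61 for primed genes. With quantile normalization the medians of DNA methylation (-0.02), chaperone (-0.04), FGF (-0.02) and mitosis genes (-0.05) turned positive, at most 0.02. The set of genes above 0 in all 5 libraries, chosen after seeing the data, gave 277 higher and 341 lower. No paired analysis was possible because each group has 1 library. For the same reason no library could be left out. Depth limits the low genes: Fgf5 with LIF rests on about 7 fragments by the depth estimate, which is approximate.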

Other observations

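Measured by FPKM rather than by ratio, the larger shifts were in abundant transcripts. The ribosomal protein gene Rpl8 had one of the largest falls, at 2526 and 2014 FPKM (2167 and 2134 FPKM in labelled cells). Mt1, described above, had one of the largest rises. The other genes given here were chosen after their values were seen and do not stand for a class of proteins. Apoe, a lipid carrier, measured 969 FPKM with LIF and 624 FPKM after withdrawal (485 and 243 FPKM in labelled cells). Spp1, the secreted phosphoprotein osteopontin, measured 446 and 150.0 FPKM (467 and 120 FPKM), and Tmsb4x, an actin-sequestering peptide, 683 and 376 FPKM (656 and 264 FPKM). Hspb1, a small heat shock protein, measured 492 and 260 FPKM (285 and 169 FPKM), and Trh, a neuropeptide precursor, 160 and 28.5 FPKM (364 and 101 FPKM). In Apoe, Spp1, Tmsb4x, Hspb1 and Trh the withdrawal library was the lower in both cell types. On the higher side, Eef1b2, a translation elongation subunit, measured 288 and 469 FPKM (241 and 460 FPKM) and Atpif1, an inhibitor of mitochondrial ATP synthase, 76.1 and 232 FPKM (78.3 and 140 FPKM).

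Genes listed at 0 fall outside the comparison. Of genes with a mean of at least 1 FPKM, 162 were listed at 0 in the normal LIF library only and 171 in the withdrawal library only, and in 87 of these the other library had at least 10 FPKM. Tuba1b, an alpha-tubulin of dividing cells, stood at 1090 FPKM with LIF and was listed at 0 after withdrawal, and Tubb4b, a beta-tubulin, was listed at 0 with LIF and stood at 457 FPKM after withdrawal. In labelled cells Tuba1b measured 1352 and 1605 FPKM, and Tubb4b 398 and 256 FPKM.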
